A study of Mus musculus with 180 samples.

Results

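The genes described here are Id1, Id2 and Id3, which encode inhibitor of DNA binding (ID) proteins, in mouse bone marrow-derived macrophages (BMDMs) exposed to clinical kinase inhibitors (CKIs) and then to LPS. The genes were taken by their symbols from the table of normalized exonic read counts, in which 3 of 45070 genes carry these names. The group was picked on a measured value, the rise of Id1 with Filgotinib, so all values of Id1, Id2 and Id3 with Filgotinib are given below as a description and without a test. Their values with the other 57 CKIs were not part of that choice and were tested.

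ID proteins are helix-loop-helix proteins that lack the basic region with which related transcription factors contact DNA. They pair with E proteins, such as those encoded by Tcf3, Tcf4 and Tcf12, and the resulting pairs do not bind DNA. Their genes are well-known targets of BMP and TGF-beta signals, which reach the nucleus through SMAD proteins, and they respond quickly to growth factors and cytokines. In blood cells ID proteins are known for their part in lineage choice, and Id2 in particular for the development of innate lymphoid cells and dendritic cells.

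The BMDMs were wild type and, by the study's methods, were grown from the marrow of male C57/BL6 mice aged 6 to 8 weeks. All 180 samples shared a pre-treatment of 1 h, either with the solvent DMSO or with 1 of 58 CKIs, and 2 h of LPS at 10 ng/ml, a bacterial product that activates TLR4. There were no samples without LPS, so each difference below is between LPS-treated cells. Each CKI had 3 samples and DMSO had 6, which the labels divide into 2 sets of 3. Each CKI was used at a concentration of its own, set by its affinity for an intended target that could differ from the kinase it was developed against, so CKIs are placed side by side below and were not tested against each other. The methods speak of independent biological replicates, and the labels do not say which animals they came from. The normalized values of a sample summed to between 9477340 and 12273349, and the share from mitochondrial genes ran from 0.525% to 4.47%. All 9 macrophage markers examined, among them Adgre1 and Csf1r, had a mean of at least 10, whereas 6 of 7 markers of T, B or NK cells and all 3 erythroid markers had a mean under 1.

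The members of the family are similar in sequence, and the stretch that they share most closely is shown first because it bears on whether reads of a member could have been counted for another. It was found as the 90 coding bases, without gaps, with the most positions identical in Id1, Id2 and Id3, and 56 of 90 positions (62.2%) were identical in all of them. The bases are from the GENCODE M21 transcripts on GRCm38, and capitals mark the positions identical in the members. Each stretch lies within the first exon. For Id1 it is chr2:152736518-152736607 on the plus strand, for Id2 chr12:25095813-25095902 on the minus strand, and for Id3 chr4:136144002-136144091 on the plus strand.
Id1: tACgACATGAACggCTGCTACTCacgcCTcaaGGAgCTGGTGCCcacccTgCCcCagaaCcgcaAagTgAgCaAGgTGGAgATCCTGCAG
Id2: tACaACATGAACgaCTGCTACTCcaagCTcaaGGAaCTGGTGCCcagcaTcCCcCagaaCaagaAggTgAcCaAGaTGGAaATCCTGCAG
Id3: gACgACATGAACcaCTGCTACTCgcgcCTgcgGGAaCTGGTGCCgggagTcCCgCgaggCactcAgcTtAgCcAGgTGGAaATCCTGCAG
In this stretch Id1 and Id2 shared 73 bases, Id2 and Id3 63 and Id1 and Id3 62. Over the whole transcripts the longest identical run was 19 bases, between Id2 and Id3, and it was 12 bases between Id1 and Id3 and 11 between Id1 and Id2. GENCODE M21 lists no other gene overlapping the annotated span of Id1, Id2 or Id3, on either strand.

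In the deposited table Id1 spans chr2:152736251-152737410 on the plus strand, Id2 chr12:25093799-25096092 on the minus strand and Id3 chr4:136143822-136145392 on the plus strand, in mm10. The length given for Id1, 1160 bases, equals its whole span, so the region between its exons is included in that length, while the lengths of Id2 (1272 bases) and Id3 (953 bases) are shorter than their spans of 2294 and 1571 bases. In DMSO the normalized value of Id1 was 45.7 ± 15.7 (SD, n = 6), that of Id2 was 2853 ± 1289 and that of Id3 was 834 ± 165. Per 1000 bases of the listed length these were 39.4 for Id1, 2243 for Id2 and 875 for Id3, so that per length Id2 was 57 times and Id3 22.2 times as high as Id1. The relative Id4 was at 0 in 178 of 180 samples and reached at most 1. In these macrophages Id2 and Id3 were thus well measured, Id1 was a gene of low level, and Id4 was at or near 0.

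The 6 DMSO samples show how far each gene varied without a CKI. Id1 was 34, 29 and 45 in set 1 and 55, 39 and 72 in set 2, for replicates 1 to 3. Id2 was 4130, 2237 and 2231 in set 1 and 4791, 1546 and 2182 in set 2, and Id3 was 800, 733 and 906 in set 1 and 951, 579 and 1035 in set 2. Replicate 1 had the highest Id2 in both sets, and replicate 3 the highest Id1 and Id3. Between the sets the log2 difference, set 2 minus set 1, was 0.59 ± 0.54 (SE) for Id1, -0.12 ± 0.35 for Id2 and 0.03 ± 0.28 for Id3, and 0 of the 12714 genes tested passed between the sets (limma, adjusted p = 1 for each of the members). At an unadjusted p under 0.05 it was 310 genes.

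Id1 had its highest level with Filgotinib, a JAK1 inhibitor by its designation, which is the value the genes were picked on. The Filgotinib samples were 212, 341 and 303, a mean of 285 ± 66.3 (SD, n = 3) against 45.7 in DMSO. All of them lay above the highest DMSO sample, 72, and the log2 difference was 2.65, or 6.29-fold. Id3 was also higher with Filgotinib, at 1913, 2276 and 2305 against a highest DMSO sample of 1035, with a log2 difference of 1.40. Id2 was 2770, 2864 and 2312, inside the range of the DMSO samples, with a log2 difference of 0.00. The mean share of mitochondrial transcripts was 1.84% with Filgotinib and 1.15% in DMSO.

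Among the 57 CKIs tested, Id1 rose with 2 and fell with none at an adjusted p under 0.05. Such a count was common, since 31.5% of the tested genes rose with as many CKIs or more, and the median gene was called with 2. Its values were 142, 148 and 260 with Midostaurin, an inhibitor of several kinases including PKC and FLT3. All 3 were above the DMSO samples, and the log2 fold change was 1.99 ± 0.47 (SE), or 3.97-fold (limma, adjusted p = 0.00256). With Tofacitinib, designated for JAK3, Id1 was 101, 198 and 186, again above every DMSO sample, and its log2 fold change was 1.81 ± 0.47 (limma, adjusted p = 0.0144). Of all genes tested, 2.63% rose and 1.93% fell with Midostaurin, and 9.02% rose and 0.857% fell with Tofacitinib. Before adjustment the limma p of Id1 was under 0.05 with 17 CKIs. Such a p was found for 2080 of the 12714 genes with Midostaurin and for 3960 with Tofacitinib. No share of all genes was computed for the count of 17. Without replicate 1 or replicate 3 of DMSO set 2, its highest DMSO samples, Id1 passed with 4 CKIs.

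The call of Id1 with Tofacitinib depended on single choices. Without replicate 2 of every CKI the log2 fold change was 1.63 (limma, adjusted p = 0.161). The SE of Id1, which is estimated over all groups, was then 0.59 instead of 0.47. Against DMSO set 2 alone the log2 fold change was 1.51 (adjusted p = 0.105). In a fit of Tofacitinib and DMSO only, the adjusted p was 0.0641. The mitochondrial share was 2.64% ± 1.33 with Tofacitinib (1.35% to 4.01%) against 0.759% to 1.94% in the DMSO samples, and with that share and the replicate number in the fit the log2 fold change of Id1 was 1.29 (adjusted p = 0.0599). With the replicate number alone in the fit it was 1.81 (limma, adjusted p = 0.00202). With Midostaurin the mitochondrial share was 1.27% ± 0.317, within the DMSO range, and its call of Id1 was lost under 1 of the 21 alternatives, against DMSO set 2 alone, where the log2 fold change was 1.70 (adjusted p = 0.0625). The part of the mitochondrial share in these results was otherwise not tested.

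**Figure D1:**
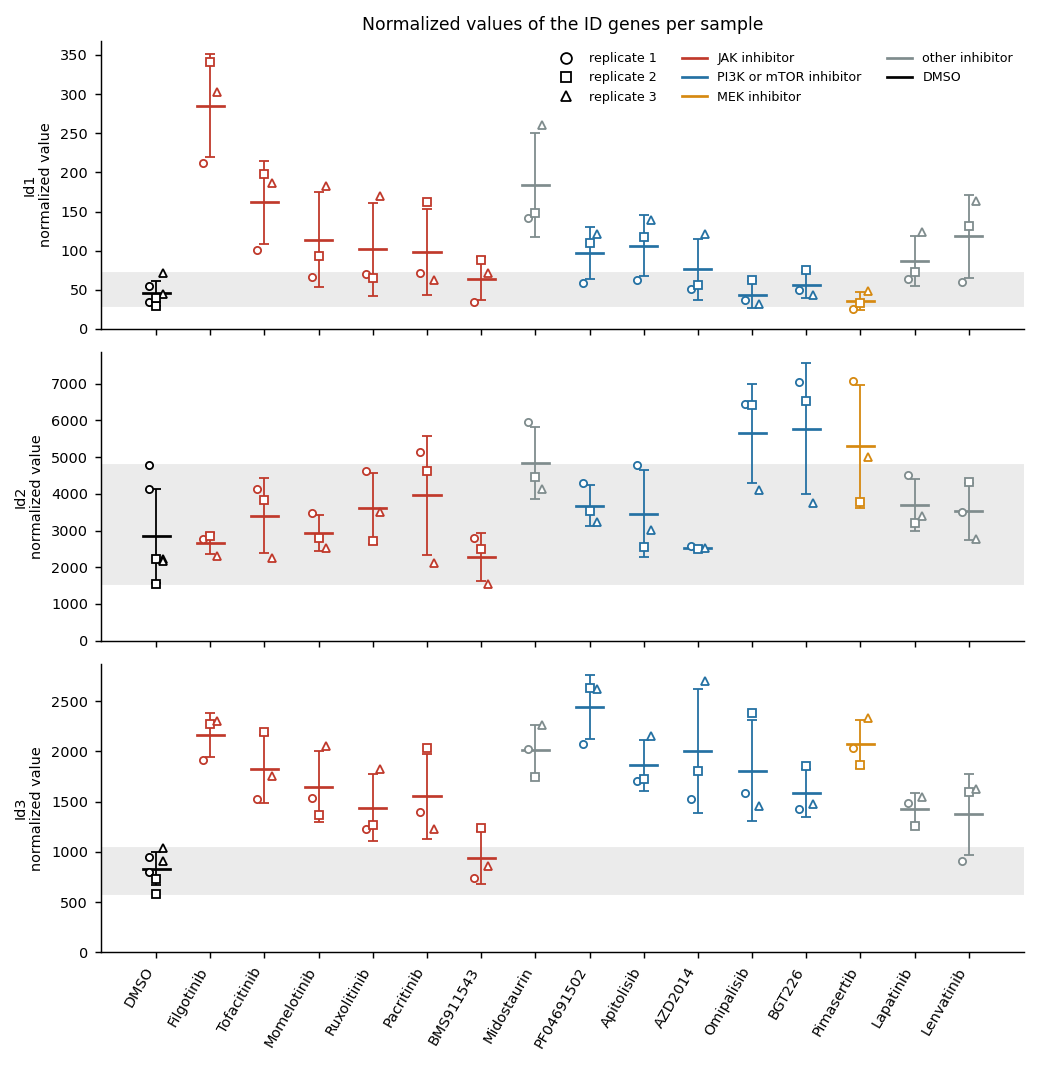
Normalized values of Id1, Id2 and Id3 (y axes, linear from 0) in DMSO, Filgotinib, the other JAK inhibitors and every CKI with which a member passed the test (x axis). Symbols are samples by replicate number, horizontal bars and whiskers are means and SD (n = 6 for DMSO and 3 otherwise), and the grey band is the range of the DMSO samples. Id3 lies above the band in all samples of Filgotinib and of 10 of the 11 CKIs with a call, whereas Id1 leaves it fully only with Filgotinib, Tofacitinib and Midostaurin among the groups shown.

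Id3 had the most calls of the members. It rose with 11 of 57 CKIs and fell with none, and in 23 of 57 all 3 samples lay above the 6 DMSO samples. For comparison, 4.48% of all pairs of a tested gene and a CKI had 3 samples above the 6 DMSO samples, and 0.267% of tested genes rose with as many CKIs as Id3 or more. All 3 samples of Id1 lay above the DMSO samples in 6 of 57 CKIs. Of these, 4 were not called for Id1, namely AC480, GSK2110183, MK5108 and SGI1776. The 57 comparisons share the same DMSO samples, so these counts are not independent of each other. Of the 171 samples of these CKIs, 114 had more Id3 than any DMSO sample and 2 had less. For Id1 these numbers were 75 and 8, and for Id2 17 and 0. No share of all genes was computed for them.

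The highest Id3 of all groups was found with PF04691502, an inhibitor of PI3K and mTOR. Its samples were 2078, 2636 and 2617, all at least as high as 2078 against at most 1035 in DMSO, and the log2 fold change was 1.57 ± 0.24 (SE), or 2.96-fold (limma, adjusted p = 5.51e-07). The mTOR inhibitor AZD2014 gave 1522, 1800 and 2701, with a log2 fold change of 1.25 (adjusted p = 2.41e-05). Among further inhibitors of PI3K or of PI3K and mTOR, Id3 was 1703, 1727 and 2154 with Apitolisib, 1589, 2383 and 1456 with Omipalisib, and 1426, 1859 and 1475 with BGT226. Their log2 fold changes were 1.17 (adjusted p = 0.00503), 1.11 (adjusted p = 0.000187) and 0.94 (adjusted p = 0.00118), and the samples of these 3 CKIs stayed above the DMSO range. Id3 did not pass with AZD8186 (729, 1249 and 1294, log2 fold change 0.37, adjusted p = 0.849) or TG100115 (960, 982 and 1433, log2 fold change 0.43, adjusted p = 0.241), which are also PI3K inhibitors and overlapped the DMSO samples. Of all genes tested, 8.86% rose and 4.22% fell with PF04691502, 6.06% and 13.5% with AZD2014, 12.7% and 3.2% with Apitolisib, 17.5% and 8.16% with Omipalisib, and 24.1% and 6.32% with BGT226.

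Outside this class, the MEK inhibitor Pimasertib gave Id3 values of 2030, 1863 and 2329, a log2 fold change of 1.33 (limma, adjusted p = 5.45e-05). The other MEK inhibitors did not pass, with Id3 at 1380, 1492 and 1656 with Refametinib (0.88, adjusted p = 0.115), above the DMSO samples, and at 1424, 647 and 1657 with Selumetinib (0.49, adjusted p = 0.778), overlapping them. Id3 had the same SE in every comparison, and p was adjusted within each, so a call also depended on how many other genes changed. The uncalled difference with Refametinib was larger than those with Lapatinib (0.80) and Lenvatinib (0.69), which were called. Midostaurin gave 2025, 1749 and 2260, a log2 fold change of 1.29 (adjusted p = 6.92e-05), and Tofacitinib 1529, 2193 and 1757, a log2 fold change of 1.14 (adjusted p = 0.00366). Momelotinib, designated for JAK1 and JAK2, gave 1534, 1364 and 2049, a log2 fold change of 0.99 (adjusted p = 0.0202), in a comparison in which only 0.378% of genes rose and 0.409% fell. Lapatinib, an inhibitor of EGFR and ERBB2, gave 1488, 1254 and 1547, a log2 fold change of 0.80 (adjusted p = 0.0149). Lenvatinib, an inhibitor of VEGF receptors, gave 905, 1592 and 1621, a log2 fold change of 0.69 (adjusted p = 0.0465). Lenvatinib was the exception among the 11, since its replicate 1 lay within the DMSO range. With Pimasertib 16% of genes rose and 5.68% fell, with Lapatinib 18.1% and 5.26%, and with Lenvatinib 11.4% and 0.802%.

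The calls of Id3 differed in how firmly they held. Those with AZD2014, Midostaurin, Omipalisib, PF04691502 and Pimasertib held under all 21 alternatives, and that with BGT226 was lost only where a log2 fold change of at least 1 was required. The call with Lenvatinib was lost under 13 of 21. Among these were the fits without replicate 1 (limma, adjusted p = 0.0798), 2 (adjusted p = 0.123) or 3 (adjusted p = 0.239) of every CKI. It was also lost without replicate 2 (adjusted p = 0.0696) or 3 (adjusted p = 0.0643) of DMSO set 1, and without replicate 2 of DMSO set 2 (adjusted p = 0.130). Leaving out the last of these DMSO samples, the lowest in Id3, also ended the calls with Lapatinib (adjusted p = 0.0575) and Momelotinib (adjusted p = 0.0910). Without replicate 1 of every CKI the calls with Momelotinib (adjusted p = 0.0991) and Lapatinib (adjusted p = 0.0829) were lost. Without replicate 2 of every CKI that with Tofacitinib was lost (adjusted p = 0.0697). Without replicate 3 of every CKI those with Momelotinib (adjusted p = 0.406), Lapatinib (adjusted p = 0.0669) and Apitolisib (adjusted p = 0.0644) were lost. In these fits the SE of Id3 was 0.30, 0.25 and 0.28, against 0.24 with all samples. Single samples of a CKI were not left out by themselves.

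The mitochondrial share moved with several of these groups. Its mean was 3.66% with Pimasertib, 2.93% with Apitolisib, 2.77% with Lenvatinib, 2.76% with Lapatinib, 2.69% with PF04691502, 1.81% with Omipalisib, 1.57% with BGT226, 1.16% with AZD2014 and 1.15% with Momelotinib, against 1.15% in DMSO. With the replicate number alone in the fit, Id3 passed in 16 CKIs, among them all 11 of the main fit. With the share added to the replicate number, Id3 passed in 8 CKIs, and the calls with Apitolisib (log2 fold change 0.93, adjusted p = 0.0900), Lapatinib (0.55, adjusted p = 0.175) and Lenvatinib (0.45, adjusted p = 0.424) did not remain. With AZD2014 and Momelotinib, whose mitochondrial shares were as in DMSO, the log2 fold changes of Id3 in that fit were 1.24 and 0.98.

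Id2, the highest of the members, changed with 3 CKIs, all of them also among the 11 of Id3. Of the tested genes, 21.4% rose with as many CKIs or more. With BGT226 it was 7050, 6535 and 3747, with a log2 fold change of 1.08 ± 0.30 (SE), or 2.11-fold (limma, adjusted p = 0.00254). With Omipalisib it was 6435, 6416 and 4096, a log2 fold change of 1.07 (adjusted p = 0.00387), and with Pimasertib 7085, 3778 and 5016, a log2 fold change of 0.96 (adjusted p = 0.0168). In each of these groups 2 of 3 samples were above the highest DMSO sample, 4791, and in none of the 57 CKIs were all 3 samples above it. Compared with the DMSO samples of the same replicate number, all 3 samples were higher in each of these CKIs, with log2 differences from 0.53 to 1.81. The calls with BGT226 and Omipalisib were lost without replicate 2 of every CKI (limma, adjusted p = 0.0694 and 0.0877). Their log2 fold changes were then both 0.96, and the SE of Id2 was 0.40 instead of 0.30. The call with Pimasertib was lost without replicate 1 of every CKI (log2 fold change 0.73, adjusted p = 0.10). It was also lost without replicate 2 of DMSO set 2 (adjusted p = 0.0696). With Midostaurin, which came next in order, Id2 was 5957, 4450 and 4135, with a log2 fold change of 0.86 (adjusted p = 0.0792). With the replicate number in the fit it passed (limma, adjusted p = 0.00107). It also passed with the mitochondrial share added (log2 fold change 0.83, adjusted p = 0.000712).

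Across the 57 CKIs, most differences from DMSO were above 0 for each member, 50 for Id1, 51 for Id2 and 52 for Id3. The median log2 fold change was 0.70 for Id1, 0.30 for Id2 and 0.58 for Id3. Over all tested genes the median number of CKIs with a difference above 0 was 38, and 23.5%, 20.1% and 16.8% of genes had at least as many as Id1, Id2 and Id3. The median log2 fold change of all genes was also above 0 in 54 of 57 comparisons, and it reached 0.21 with BGT226. Relative to the median of all genes in the same comparison, the called differences were from 1.63 to 1.88 for Id1, from 0.84 to 0.95 for Id2 and from 0.51 to 1.46 for Id3. After a further scaling by the median of ratios, which moved the median of all genes by up to 0.20 in these comparisons, 15 of 16 calls held, Id3 with Lenvatinib being the exception (log2 fold change 0.52, adjusted p = 0.120).

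**Figure D2:**
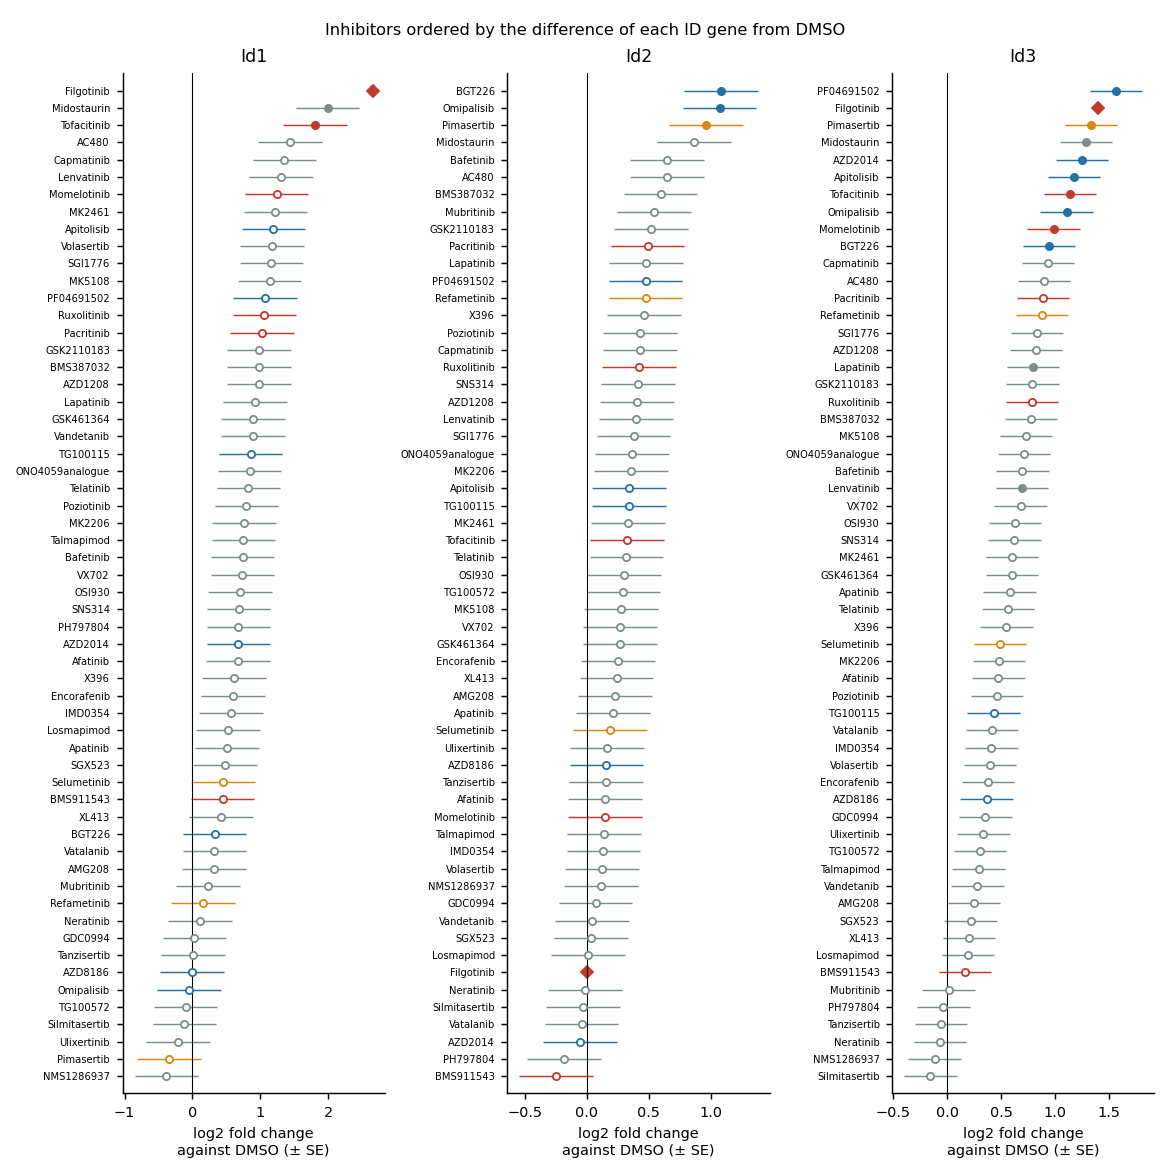
Log2 fold change against DMSO (x axis) of Id1, Id2 and Id3 for the 58 CKIs, ordered within each panel from the highest at the top. Whiskers are SE, filled circles passed the test and open circles did not, diamonds are Filgotinib with no test, and colours mark JAK (red), PI3K or mTOR (blue), MEK (orange) and other (grey) inhibitors. Filgotinib leads for Id1 and is second to PF04691502 for Id3, and its Id2 difference is at 0.00.

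In the order of the 59 groups by mean log2 value, DMSO stood at rank 52 for Id1, 53 for Id2 and 54 for Id3. From the highest to the lowest group the mean of Id1 spanned 8.22-fold, that of Id3 3.30-fold and that of Id2 2.51-fold. After Filgotinib, Midostaurin and Tofacitinib, Id1 was highest with AC480 (77, 136 and 163) and Capmatinib (61, 171 and 137), whose differences did not pass the test (limma, adjusted p = 0.187 and 0.154). The 10 groups at ranks 6 to 15 had mean Id1 values between 96.7 and 118, the 20 at ranks 16 to 35 between 70.0 and 94.0, and the 16 from rank 36 to DMSO between 44.7 and 79.7. The lowest Id1 was found with NMS1286937, a PLK1 inhibitor (15, 57 and 42), and with Pimasertib (25, 33 and 48), and both overlapped the DMSO samples.

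For Id3 the 10 groups at ranks 6 to 15 had means between 1467 and 1861, the 20 at ranks 16 to 35 between 1159 and 1464, the 18 from there to DMSO between 883 and 1168, and the 5 groups below DMSO between 764 and 803. The lowest was Silmitasertib, an inhibitor of casein kinase 2, at 841, 495 and 957. For Id2 ranks 6 to 15 lay between 3649 and 4214, ranks 16 to 35 between 3232 and 3609, and ranks 36 to 52 between 2649 and 3227. BMS911543 was lowest in Id2, at 2797, 2505 and 1555. The order is fine-grained only in appearance, since none of the 58 steps between neighbours exceeded the pooled SD of the samples within groups, which was 0.67 for Id1, 0.43 for Id2 and 0.35 for Id3 on the log2 scale. The largest step for Id1, 0.66, separated Filgotinib from Midostaurin.

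The CKIs designated for JAKs were compared side by side. Id1 was 67, 93 and 182 with Momelotinib, 70, 65 and 170 with Ruxolitinib, 72, 162 and 62 with Pacritinib and 34, 88 and 71 with BMS911543. These were differences of 1.24, 1.06, 1.03 and 0.45 on the log2 scale, none past the threshold (limma, adjusted p = 0.279, 1.00, 0.227 and 0.668), and each of these groups overlapped the DMSO samples. With the mitochondrial share and the replicate number in the fit, Id1 passed with Momelotinib (log2 fold change 1.21, limma, adjusted p = 0.0296). With the replicate number alone it did not (adjusted p = 0.0736). Id3 was 1223, 1269 and 1823 with Ruxolitinib and 1396, 2034 and 1228 with Pacritinib, above every DMSO sample in both, with log2 fold changes of 0.79 (adjusted p = 0.956) and 0.89 (adjusted p = 0.0845). Of the comparison with Ruxolitinib, 0 of 12714 genes passed, and 590 had an unadjusted p under 0.05. BMS911543, designated for JAK2, stood apart in value, with Id3 at 735, 1239 and 856 and a log2 fold change of 0.17 (adjusted p = 0.777), although 1087 genes passed in its comparison. The concentrations of these CKIs differed, so no test was made between them.

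Ratios of the members within samples were examined in the 11 CKIs with a call, all of which are calls of Id3, so that high ratios of Id3 were favoured by the choice. Midostaurin and Tofacitinib were also called for Id1, which favoured low ratios of Id3 to Id1 with them. With Pimasertib Id3 was 2.52-fold and Id2 1.94-fold of DMSO, while Id1 was 25, 33 and 48, a log2 fold change of -0.35 ± 0.47. With Omipalisib Id1 was 37, 63 and 32 and with BGT226 50, 75 and 44, log2 fold changes of -0.05 and 0.32. The ratio of Id3 to Id1 within a sample was above that of all 6 DMSO samples in all 3 samples of Pimasertib, Omipalisib and BGT226, by 1.68, 1.16 and 0.62 on the log2 scale, and below it in all 3 samples of Midostaurin, by -0.70 (exact permutation test over 84 splits, two-sided, p = 0.0238 for each). This p is the smallest the test can give, and a single ratio with it could not pass after adjustment for all ratios examined. Over the 33 ratios examined, 3 for each of the 11 CKIs with a call, 8 had a p under 0.05 before adjustment and 0 after it, the adjusted p of these 4 being 0.131. The ratio of Id3 to Id2 exceeded all DMSO samples with AZD2014 and PF04691502, by 1.30 and 1.09 (exact permutation test, p = 0.0238, adjusted p = 0.131).

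**Figure D3:**
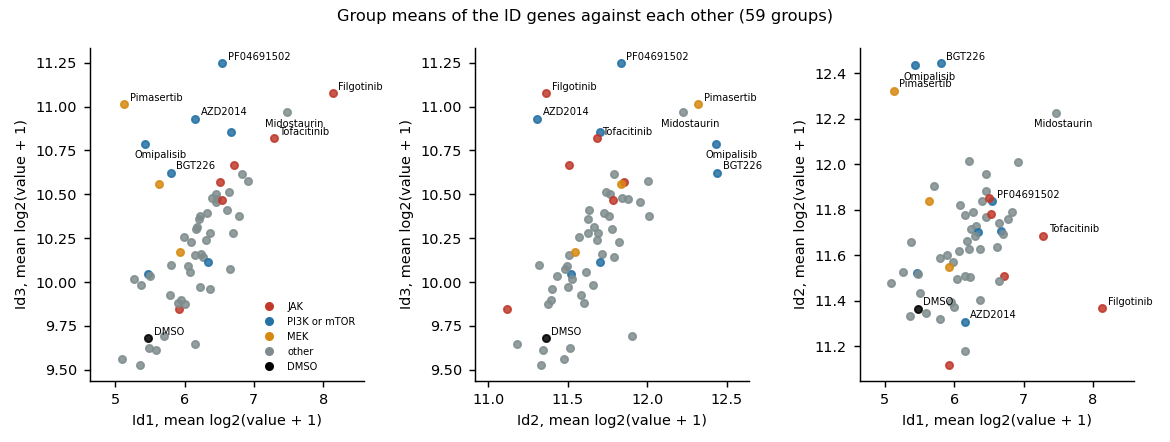
Mean log2(normalized value + 1) of a member against that of another for the 59 groups, coloured by the class of the CKI. Id1 and Id3 rise together over most groups, with Pimasertib, Omipalisib and BGT226 lying to the upper left, high in Id3 for their Id1. AZD2014 and PF04691502 are also high in Id3 but stand at ranks 33 and 13 of 59 in Id1.

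Over the 59 group means, Spearman's correlation was 0.60 between Id1 and Id3, 0.62 between Id2 and Id3, and 0.30 between Id1 and Id2. Without Filgotinib it was 0.58, 0.68 and 0.35. As a scale for these values, 1.07% of the tested genes correlated more closely with Id1 than Id3 did. For Id2, 0.826% did so more closely than Id3, and 30.1% correlated more closely with Id1 than Id2 did. Seen from Id3 the shares were larger, with 3.21% of genes closer to it than Id1 and 2.30% closer than Id2. The groups share their normalization and their replicate numbers, so these correlations are a description. The group means of Id1, Id2 and Id3 also had Spearman correlations of 0.42, 0.44 and 0.50 with the mitochondrial share. For deviations of samples from their group means these were -0.01, 0.59 and 0.09. The part of that share in the likeness of the members was not tested.

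Within groups, samples with more Id1 also had more Id3. The Spearman correlation of the deviations of the 180 samples from their group means was 0.80 between Id1 and Id3. Between Id1 and Id2 it was -0.16 and between Id2 and Id3 0.17, and both changed once the mean of each replicate number was removed, to 0.62 and 0.77. Replicate 1 had the highest Id2 in 46 of 59 groups and replicate 3 in 0, whereas replicate 3 had the highest Id1 in 34 groups and the highest Id3 in 34. The median Id2 over all samples was 4133 in replicate 1, 3058.5 in replicate 2 and 2556.5 in replicate 3. The median Id1 was 55, 72 and 95 and the median Id3 1097.5, 1261.5 and 1347.5 in the same order. The replicate number thus accounted for 36.3% of the sum of squares of Id2 over samples, about as much as the groups (37.4%), but for 15.8% in Id1 and 3.53% in Id3, where the groups held 51.5% and 66.5%.

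**Figure D4:**
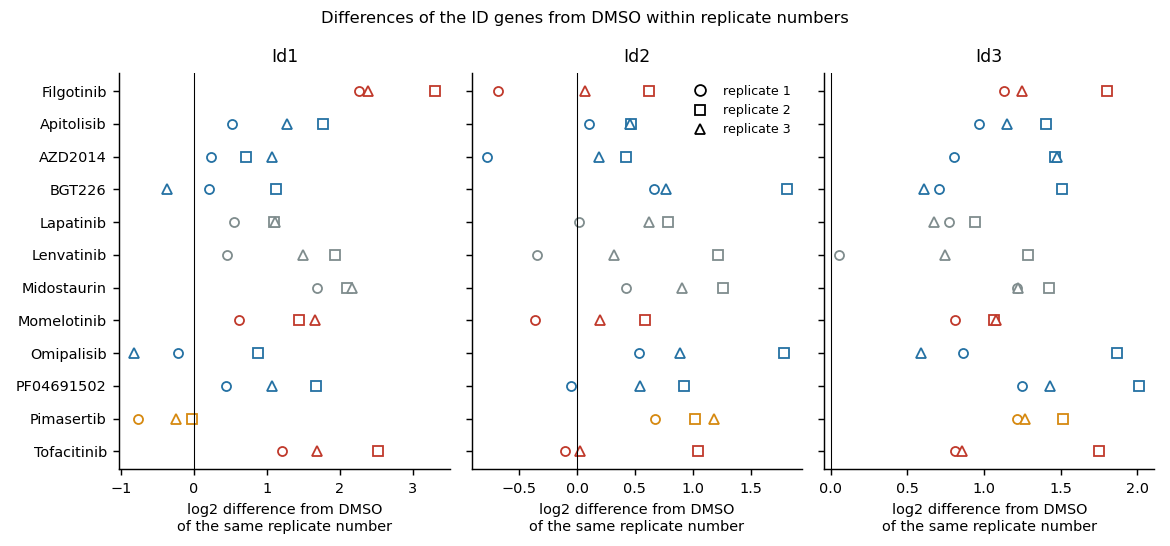
Log2 difference of each sample from the mean of the 2 DMSO samples of the same replicate number (x axes) for Filgotinib and the 11 CKIs with a call. Every Id3 point lies above 0, the Id2 point of replicate 1 is the lowest in every row, and all Id1 points of Pimasertib lie below 0.

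Within replicate numbers, the 16 called differences were above 0 in all 3 samples. For Id3 the smallest was 0.05, with replicate 1 of Lenvatinib, and the largest 2.01, with replicate 2 of PF04691502. Replicate 2 gave the largest difference of Id2 in BGT226 and Omipalisib, 1.81 and 1.79, and replicate 2 of DMSO set 2 was the lowest of the DMSO samples in both Id2 and Id3. Over all 57 CKIs, the 3 samples were all higher than their DMSO counterparts in 35 for Id1, 19 for Id2 and 39 for Id3. No share of all genes was computed for these counts, so they are not read as particular to the members. The median gene had a mean difference above 0 in 38 of 57 CKIs.

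The E proteins that ID proteins pair with were all detected. Tcf4 was at 444 in DMSO, Tcf12 at 107 and Tcf3 at 63.2. In the 11 comparisons with a call of an ID gene, Tcf12 rose in 5 and Tcf3 and Tcf4 changed in none (limma, adjusted p under 0.05). Tcf12 had mean values of 258 with BGT226, 247 with PF04691502, 232 with Omipalisib, 216 with Pimasertib and 180 with Apitolisib, log2 fold changes of 1.19, 1.22, 1.11, 1.02 and 0.77. Of all genes 24.1%, 8.86%, 17.5%, 16% and 12.7% rose in these comparisons, in the same order. The rise of 1 of the 3 partners is therefore not read as particular to them. With the mitochondrial share and the replicate number in the fit, the differences with Apitolisib (adjusted p = 0.458) and Pimasertib (adjusted p = 0.405) did not pass, and Tcf3 was lower with Omipalisib (adjusted p = 0.0188, against 0.0615 without these terms). Over the 59 group means Tcf12 had a Spearman correlation of 0.60 with Id3 and 0.29 with Id1. With Filgotinib Tcf12 was at 140 and Tcf3 at 38.7, values that are given without a test.

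Of 43 genes of the BMP and TGF-beta pathway, 28 were high enough to be tested. Among the ligands Bmp4, Bmp6 and Bmp7 were at 0 in all DMSO samples, Bmp2 had a mean of 2.67, and Gdf3 (352), Tgfb1 (59) and Gdf15 (55.0) were among the ligands tested. The receptors Tgfbr1 (1361), Tgfbr2 (812), Eng (765), Acvr1b (197), Acvr2a (168), Bmpr2 (147) and Acvrl1 (125) were measured, and Bmpr1a had a mean of 8.33. Among the signal-carrying SMADs, Smad2 was at 245 and Smad1 at 33.0, while the inhibitory Smad6 and Smad7 had means of 3.50 and 6.17.

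Counts in the pathway list are read against the shares of all genes given above for each CKI. With Omipalisib 9 of 28 rose and 2 fell, with BGT226 6 rose and 2 fell, with Pimasertib 4 rose and 2 fell, with Lapatinib 3 rose and 3 fell, and with PF04691502 3 rose and 2 fell. With AZD2014 1 rose and 5 fell, with Midostaurin 2 rose and 2 fell, with Tofacitinib 2 rose and 0 fell, with Apitolisib 0 rose and 2 fell, with Lenvatinib 1 rose and 0 fell, and with Momelotinib 0 changed. The 9 genes with Omipalisib are 32.1% of the list, beside 17.5% of all genes that rose, and the 5 that fell with AZD2014 are 17.9%, beside 13.5%. With BGT226, Pimasertib and Lapatinib the shares that rose, 21.4%, 14.3% and 10.7%, were below those of all genes, 24.1%, 16% and 18.1%. As a median of the 28 genes, the log2 difference from DMSO went from -0.14 with AZD2014 to 0.44 with Omipalisib, beside -0.02 and 0.12 over all genes in these comparisons, and with Tofacitinib it was 0.36 beside 0.17. With Momelotinib none of the 28 passed, and their median was 0.22 beside 0.11.

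The ligands Gdf15 and Inhba rose with BGT226 and Omipalisib. Gdf15, a stress-induced member of the TGF-beta family, was at 1338 with BGT226 and 1189 with Omipalisib against 55.0 in DMSO, log2 fold changes of 4.57 and 4.38 (limma, adjusted p = 5.16e-16 and 8.37e-15). Inhba, which encodes a subunit of activin, had log2 fold changes of 1.60 and 2.28 with the same CKIs, and the receptor Tgfbr1 of 0.92 and 0.96. Tgif1, a repressor of SMAD-driven transcription, rose with BGT226 (2.42), Omipalisib (2.46), PF04691502 (1.44) and AZD2014 (1.25) and fell with Midostaurin by 0.88 on the log2 scale. Twsg1, which encodes a binding protein of BMPs, fell with AZD2014, PF04691502, Apitolisib and Lapatinib, by 0.83, 0.50, 0.48 and 0.43 on the log2 scale. With the mitochondrial share and the replicate number in the fit, the fall of Twsg1 passed with AZD2014 but not with PF04691502, Apitolisib or Lapatinib (adjusted p = 0.0966, 0.288 and 0.292).

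Among the receptors, Acvr1b, a type I receptor for activin, rose with Midostaurin, from 197 to 551 (log2 fold change 1.54, limma, adjusted p = 9.98e-06), and fell with Pimasertib by 1.46 and with BGT226 by 0.93 on the log2 scale. Acvr2a, a type II activin receptor, fell with AZD2014 by 1.60 and with Omipalisib by 1.46. The inhibitory Smad7 was called with Omipalisib, Lapatinib and Tofacitinib (log2 fold changes 1.26, 1.26 and 1.29) at mean values of 15.7, 15 and 15.3, and none of these passed with the mitochondrial share and the replicate number in the fit (adjusted p = 0.0515, 0.273 and 0.318).

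Of 11 other genes known as direct SMAD targets, 7 were tested, and Smad7, Skil, Bambi, Pmepa1 and Tgif1 among them also belong to the pathway list. Hes1 was at 0 in DMSO, and Hey1, Atoh8 and Smad6 had means of 0.33, 1.83 and 3.50. With Midostaurin 0 of the 7 rose and 2 fell, Bambi and Tgif1, and with Tofacitinib 1 rose, Smad7, and 0 fell. With Omipalisib 4 rose, with BGT226 and PF04691502 2 each, with AZD2014, Lapatinib, Lenvatinib and Pimasertib 1 each, and with Apitolisib and Momelotinib 0. Of the same 7 genes 2 fell with AZD2014 and Lapatinib, 1 with Apitolisib and Pimasertib, and 0 with BGT226, Omipalisib, PF04691502, Lenvatinib and Momelotinib. With 24.1% of all genes rising with BGT226, 18.1% with Lapatinib and 16% with Pimasertib, 1 or 2 of 7 is near the background there, and 4 of 7 with Omipalisib stands beside 17.5%. Bambi, a decoy receptor of the pathway, rose with Omipalisib (log2 fold change 1.90, limma, adjusted p = 4.11e-08) and fell with Midostaurin (-1.12), Apitolisib (-0.82), AZD2014 (-0.77) and Lapatinib (-0.75). Junb, a subunit of the AP-1 transcription factor, fell with AZD2014, Lapatinib and Pimasertib, by 0.65, 0.70 and 0.86 on the log2 scale. With the mitochondrial share and the replicate number in the fit, the falls of Bambi with Apitolisib and Lapatinib (adjusted p = 0.240 and 0.216) and of Junb with Lapatinib and Pimasertib (adjusted p = 0.127 and 0.0832) did not pass.

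Of 11 genes of the cell cycle that ID proteins are linked to, 10 were tested. With Midostaurin 3 of them rose, with BGT226, PF04691502 and Tofacitinib 2 each, with Momelotinib 0 and with the others of the 11 CKIs 1 each. Of all genes 2.63% rose with Midostaurin, 24.1% with BGT226, 8.86% with PF04691502 and 9.02% with Tofacitinib, so that 2 of 10 with BGT226 is below the background. A fall was called for 1 gene each with BGT226, Lapatinib, Omipalisib and Pimasertib. Myc, a growth-promoting transcription factor, had the closest correlation with Id1 of this list. It was at 342 in DMSO, 1367 with Midostaurin (log2 fold change 2.02, limma, adjusted p = 5.98e-12) and 575 with Tofacitinib (0.78, adjusted p = 0.0254), and 562 with Filgotinib, for which no test was made. With the mitochondrial share and the replicate number in the fit, the adjusted p with Tofacitinib was 0.0792. Over the 59 group means the Spearman correlation of Myc with Id1 was 0.67. Cdkn1b, which encodes the CDK inhibitor p27, rose with AZD2014 (1.21), Omipalisib (1.02), PF04691502 (0.98), Midostaurin (0.72) and BGT226 (0.63). Rb1, a brake on cell cycle entry, rose with Apitolisib, BGT226, Lapatinib, PF04691502 and Tofacitinib, and of these BGT226 alone passed with the mitochondrial share and the replicate number in the fit. The cyclin gene Ccnd2 fell with BGT226 and Pimasertib by 1.70 and 1.46 on the log2 scale.

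**Figure D5:**
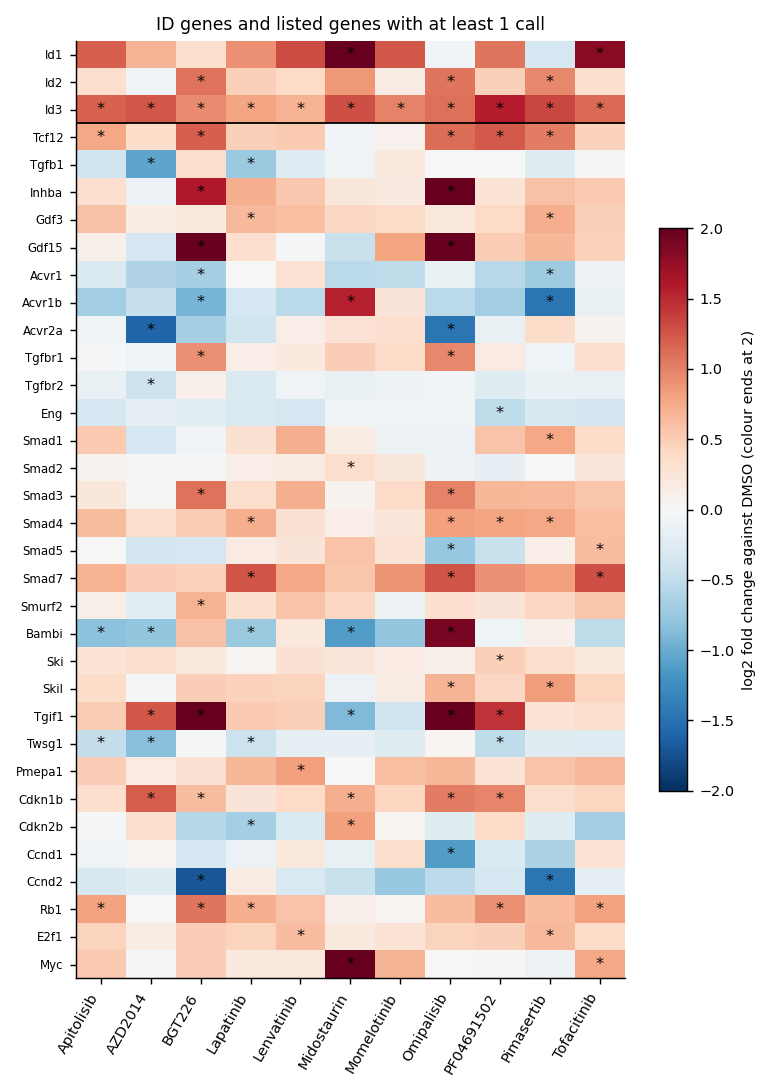
Log2 fold change against DMSO (colour, red higher and blue lower, ending at 2) of Id1, Id2, Id3 and the 31 listed partner, pathway and cell cycle genes that passed the test at least once, in the 11 CKIs with a call of an ID gene (columns). Asterisks mark an adjusted p under 0.05. The columns are the CKIs in which Id3 was called, so its row of asterisks follows from their choice.

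The genes whose 59 group means were most like those of Id1 were Slc2a1, the glucose transporter GLUT1, with a Spearman correlation of 0.77, then Btg2 (0.74), Rsl1d1 (0.74), Nop16 (0.74) and Riok2 (0.72). Those most opposed to Id1 were Nampt (-0.77), Gcc1 (-0.75) and Stau1 (-0.74). For Id2 the closest were Gadd45g (0.78), Pcf11 (0.77), Lhfpl2 (0.75), Gm6377 (0.74) and Hilpda (0.73), and the most opposed Dbnl (-0.72), Men1 (-0.72) and Plod3 (-0.67). For Id3 the closest were E430018J23Rik (0.81), Brd8 (0.78), Gm34084 (0.77), Zfp52 (0.77) and Zfp607a (0.76), and the most opposed Ppa1 (-0.82), Sgk3 (-0.78) and Pnpt1 (-0.78). No gene was among the 5 closest of more than 1 member. In the deviations of samples from their group means, with the replicate numbers removed, Gadd45g and Hilpda kept correlations of 0.76 and 0.86 with Id2, and Slc2a1 had 0.46 with Id1.

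Markers of other cells were examined beside these results. The summed value of the 5 neutrophil genes was 185 to 526 in DMSO and higher with Pimasertib (795 to 964) and Lapatinib (742 to 974), and it reached 864 with Apitolisib, 873 with Lenvatinib and 1199 with Tofacitinib, mainly through S100a8 and S100a9, while Ly6g had a mean of 0.622 over all samples. The sum was 121 to 212 with Omipalisib, 129 to 360 with BGT226 and 140 to 405 with PF04691502. Mpo and Elane had means of 14.3 and 21 in DMSO. They were 2.33 and 0.667 with Omipalisib, 2.67 and 4.67 with BGT226, 6.67 and 7 with PF04691502, and 34.7 and 27 with Tofacitinib. The 5 endothelial genes summed to 80 to 469 in DMSO and to 508 to 557 with Omipalisib and 515 to 709 with BGT226. That sum came from Kdr and Vwf, and the defining genes Cdh5 and Tek had means of 3.13 and 0.0944 over all samples. Of the 6 fibroblast genes, Col1a1 and Col1a2 had means of 28.8 and 16.1 and Pdgfra, Dcn and Lum were under 1, and of the 5 dendritic cell genes only Xcr1 had a mean of at least 10. The sum of the dendritic cell genes was 61 to 93 in DMSO and 115 to 162 with Omipalisib, where Xcr1 had a mean of 122 against 56.5 in DMSO (44 to 72), while Flt3, Zbtb46, Clec9a and Siglech had means of 7.06, 5.82, 1.93 and 2.86 over all samples. In bulk RNA, fewer cells of a type and less RNA per cell cannot be told apart, and the part of these genes in the results was not tested.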

How the data were processed

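RNA of 180 BMDM samples was prepared by SMART-seq2 from polyA RNA, cut with Tn5 and sequenced. By the submitters' processing notes and the methods, the authors aligned reads to mm10 with TopHat2 2.1.1, counted them on exons of RefSeq genes and scaled samples to each other on genes of low variance. The deposited table holds these scaled counts without decimals, so they are treated as a score, called normalized value here, and no count model was run. Sequencing depth before scaling is not given in the sources used here. Samples were grouped by their labels, and 0 sample columns were left without a sample.

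CKIs were compared with the 6 DMSO samples by limma 3.58.1 (R 4.3.3) on log2(normalized value + 1), with all 59 groups and a trended variance in a single fit. Genes whose mean reached 10 entered it, 12714 of 45070. Adjustment was by Benjamini-Hochberg across them within each comparison, with a threshold of 0.05. A fold change is on this scale and understates changes of low genes. The SE was 0.47 for Id1, 0.30 for Id2 and 0.24 for Id3 in every comparison, because the groups share an estimate of spread. No source ties samples to animals, so p-values measure the spread between samples, which may be technical. Ratios of members within samples were tested after the data were seen, by exact permutation in SciPy 1.17.1. The fit was tested on simulated data.

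The members, gene lists and tests were chosen with earlier results of these data known. A gene of the list of SMAD targets is not reported here. Named are the members, Id4, genes of the lists, the 5 genes most and the 3 least like each member, the CKIs with a call, the JAK inhibitors and the CKIs with the highest and lowest levels. Alternatives were pseudocounts of 0.5 and 10, no filter or a mean of 50, median of ratios scaling, each DMSO set alone, no trend, only the groups compared, a replicate block without and with the share of the 37 mitochondrial genes, a log2 fold change of at least 1, and leaving out samples.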

Additional observations from a re-analysis of the deposited data

How the results depend on the processing

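The number of CKIs with a call was 2 for Id1, 3 for Id2 and 11 for Id3. With the replicate number as a block (replicate block) it was 5, 6 and 16, with no call lost and none lower than DMSO. Gained were Apitolisib, Lenvatinib and PF04691502 for Id1, Bafetinib, Lapatinib and Midostaurin for Id2, and Bafetinib, Capmatinib, Pacritinib, Refametinib and SGI1776 for Id3. For Id1 it was 0 against DMSO set 2 alone, and for Id3 it was 7 where a log2 fold change of at least 1 was also required. For Id3 it was 8 against either DMSO set alone and with only the groups compared. Lapatinib and Lenvatinib were lost with either set, as was Momelotinib, and Lenvatinib, Momelotinib and Tofacitinib with only the groups compared. Id2 with Pimasertib was lost against DMSO set 1 alone (adjusted p = 0.0644) and with only the groups compared (adjusted p = 0.0788). When a replicate of every CKI or a DMSO sample was left out in turn, the number was between 1 and 4 for Id1, between 1 and 4 for Id2 and between 8 and 13 for Id3. For Id1 it was 4 without DMSO set 2 replicate 1 or replicate 3. It was 1 for both Id1 and Id2 without replicate 2 of each CKI. The spread was then estimated over all groups. Of the 16 calls, 5 passed under all 21 alternatives, and none of the 16 differences changed sign. The log2 differences with Filgotinib ran from 2.34 to 2.95 for Id1, from -0.15 to 0.18 for Id2 and from 1.26 to 1.48 for Id3. Same-numbered samples of a CKI and DMSO deviated together with a correlation above 0.1 in all 3 numbers for 34 of 58 CKIs, so the numbers were not taken as pairs in the main test. The mean correlation was 0.314 for the same number. That for different numbers, -0.157, nearly follows from it, since deviations cancel within each group, and is not a separate observation. Every sample correlated best with its own number in 29 of 58 CKIs. The main test thus left differences between replicate numbers in its spread. For Id2 the SE was 0.30 there and 0.20 with the replicate block, so the main test was the stricter for Id2. The SE of 0.47 for Id1 limits what could be called there, and depth was not tested as a part of it.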
